A study of Homo sapiens with 12 samples.

Results

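The 38 genes described here carry out glycolysis or respond to low oxygen. They are 2 glucose transporters, 17 enzymes from hexokinase to lactate dehydrogenase, 2 lactate transporters, 3 regulators of flux, the oxygen-labile factor HIF1A and 13 hypoxia targets, and they were picked by symbol among the 57820 genes listed for each library. Poly(A) RNA had been sequenced in 12 libraries of 2 human squamous carcinoma cell lines in which KLF5, a zinc-finger transcription factor of epithelial cells, had been silenced or overexpressed. BICR31, a line of head and neck squamous cell carcinoma, received an siRNA against KLF5 (siKLF5, 3 libraries) or the siNC control (3 libraries). HCC95, from a lung squamous cell carcinoma, overexpressed the KLF5 missense form E419Q or wild-type KLF5 (WT), or carried an empty vector (2 libraries each). KLF5 transcript was also present in the empty-vector and siNC libraries. The sources used here do not give the vector and its promoter, the siRNA sequence, the time of harvest, whether the lines were clones, or the oxygen and glucose supply of the cultures.

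Glycolysis traps glucose as a phosphate, splits it into 3-carbon sugars and draws ATP from them on the way to pyruvate, which lactate dehydrogenase can turn into lactate for export. When oxygen is scarce, the EGLN prolyl hydroxylases no longer mark HIF proteins for destruction, and HIF binds hypoxia response elements, with the core ACGTG or GCGTG, at genes for glucose uptake, glycolysis, vessel growth, mitophagy and collagen modification. HIF1A is controlled mainly as a protein, so its transcript does not report its activity, and the transcripts of its targets are read in its place. Carcinomas of squamous type are known for a high uptake of glucose through GLUT1, the product of SLC2A1.

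RefSeq promoter windows of 300 bases, from 250 before to 50 after a gene's start (GRCh38.p14), matched 33 of the 38 genes by symbol. SLC2A3, SLC16A1, VEGFA, NDRG1 and BNIP3L were not matched. The windows of 5 genes are printed because these genes moved most: PGK1 and KDM3A had the largest called fall and rise with siKLF5, and ALDOC, SLC2A1 and ADM were among the largest rises and falls with WT for which a window was matched. Capitals mark ACGTG or GCGTG on either strand (CACGT and CACGC when read on the printed strand), each window being printed 5′ to 3′ on the gene's strand.
PGK1 (chrX:78103998-78104297, plus strand): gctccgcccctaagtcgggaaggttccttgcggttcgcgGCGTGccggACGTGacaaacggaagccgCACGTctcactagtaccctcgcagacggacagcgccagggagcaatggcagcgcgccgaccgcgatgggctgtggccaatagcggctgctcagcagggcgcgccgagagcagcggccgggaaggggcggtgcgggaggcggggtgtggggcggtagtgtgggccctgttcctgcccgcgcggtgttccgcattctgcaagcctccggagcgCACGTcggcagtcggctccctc
KDM3A (chr2:86441121-86441420, plus strand): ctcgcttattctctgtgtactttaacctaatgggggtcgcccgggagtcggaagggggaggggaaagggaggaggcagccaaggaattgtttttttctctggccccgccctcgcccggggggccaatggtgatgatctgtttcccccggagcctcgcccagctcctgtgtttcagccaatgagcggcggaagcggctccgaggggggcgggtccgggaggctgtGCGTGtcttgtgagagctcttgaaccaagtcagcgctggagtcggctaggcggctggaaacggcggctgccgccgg
ALDOC (chr17:28576846-28577145, minus strand): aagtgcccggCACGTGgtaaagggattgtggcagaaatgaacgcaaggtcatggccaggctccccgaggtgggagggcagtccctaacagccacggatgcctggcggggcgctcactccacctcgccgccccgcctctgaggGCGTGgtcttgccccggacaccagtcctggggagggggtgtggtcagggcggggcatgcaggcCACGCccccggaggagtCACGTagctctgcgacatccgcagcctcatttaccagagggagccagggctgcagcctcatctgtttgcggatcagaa
SLC2A1 (chr1:42958819-42959118, minus strand): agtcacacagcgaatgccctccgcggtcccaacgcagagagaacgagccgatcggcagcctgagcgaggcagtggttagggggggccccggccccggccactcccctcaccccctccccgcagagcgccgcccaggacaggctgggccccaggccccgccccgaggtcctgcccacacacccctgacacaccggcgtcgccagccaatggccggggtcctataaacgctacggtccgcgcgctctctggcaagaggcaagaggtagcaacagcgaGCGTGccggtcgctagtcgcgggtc
ADM (chr11:10304823-10305122, plus strand): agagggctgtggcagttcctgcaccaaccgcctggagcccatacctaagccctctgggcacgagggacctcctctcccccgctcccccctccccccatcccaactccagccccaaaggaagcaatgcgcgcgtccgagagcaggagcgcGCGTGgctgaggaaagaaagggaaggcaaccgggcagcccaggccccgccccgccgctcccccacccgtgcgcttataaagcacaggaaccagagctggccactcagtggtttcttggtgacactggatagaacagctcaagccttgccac

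The PGK1 window holds 3 ACGTG cores and 1 GCGTG core, and the ALDOC window 3 and 2. In the printed windows of KDM3A (1 of its 2 windows), SLC2A1 and ADM the only core is 1 GCGTG. Over all matched members, ACGTG was found in at least 1 window of 20 of 33 genes (60.6%), against 24.9% of 27305 genes with a window and 32.6% of the 9169 of them that were tested in HCC95. Members have more windows per gene, and counted by window the shares were 39.3% of 61 member windows and 21.4% of 35116 windows. The longer form TACGTG, which overlaps ACGTG, was found in 27.3% of members, against 4.61% of the genes tested in HCC95. GACGTG, another form that overlaps ACGTG, was found in 21.2% of members and 13.4% of the genes tested in HCC95. GCGTG stood in 57.6% of members and 59.4% of those tested genes. Of motifs bound by the KLF and SP families, the GC box GGGCG was found in 93.9% of members and 89.5% of the tested genes, and the CACCC box CCACCC in 60.6% and 45.8%. ACGTG was found in 11 of 17 enzymes and in 6 of 10 matched hypoxia targets, and a match here is only a run of letters in this window.

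The files held 1922358 to 2296191 assigned counts per library in BICR31, estimated from the worth of 1 count, and 3074139 to 4643792 in HCC95. The HCC95 values are counts scaled to the library total (CPM). The BICR31 values are units of a normalised signal that the authors deposited, and the scales of both lines cannot be compared. KLF5 stood at 986, 1008 and 882 units with siKLF5 (libraries A, B and C, the order used throughout), against 2682, 2289 and 2620 units with siNC. In HCC95 it stood at 427 and 442 CPM with E419Q and 420.0 and 404 CPM with WT, against 149.9 and 136 CPM with the empty vector. The squamous markers KRT5, KRT14, KRT17, TP63, DSG3, DSP, ITGB4, EPCAM and CDH1 were all detected in every group. Separate cultures are not mentioned in the labels, and the p-values therefore cover only how these libraries vary, which may be technical.

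In bulk RNA, fewer cells of a type and less RNA per cell cannot be told apart. The squamous markers summed to 116894 to 118889 units with siKLF5, against 142127 to 147506 units with siNC, and to 14351 to 15232 CPM with E419Q and 23418 to 24480 CPM with WT, against 19672 to 20470 CPM with the empty vector. Taken singly at an adjusted p under 0.05, 2 of the 9 rose and 5 fell with siKLF5 (77.8%, against 26.1% of all genes). With WT 6 rose and 1 fell (77.8%, against 22.9%), and with E419Q 4 rose and 4 fell (88.9%, against 21.2%). The lower sum with E419Q was thus not a fall of all these markers. Fibroblast markers summed to 1898 to 2208 units with siKLF5, against 864 to 948 units with siNC, but 4 of the 6, COL3A1, PDGFRB, LUM and DCN, had at most 3 counts in each BICR31 library. Endothelial markers summed to 268 to 427 units with siKLF5, against 164 to 246 units with siNC. Immune markers summed to 183 to 302 units with siKLF5, against 90.3 to 201 units with siNC, with PTPRC and CD3E at most at 3 counts in each BICR31 library. In HCC95 the sums of these 3 lists stayed between 0 and 28.5 CPM, and the endothelial sum was 26.3 to 28.5 CPM with E419Q and 12.3 to 16.5 CPM with WT, against 11.4 to 14.2 CPM with the empty vector. The part of these markers in the changes of the glycolysis and hypoxia genes was not tested.

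With siKLF5, 17 of the 37 members tested passed limma's threshold (adjusted p under 0.05), 7 higher and 10 lower, while 26.1% of all 15710 tested genes passed, 15.3% higher and 10.8% lower. Higher genes were 58.7% of all calls in that comparison, and 48.5% after quantile normalisation. With WT, 22 of 35 tested members passed edgeR's threshold, 11 higher and 11 lower, against 22.9% of 12933 genes (10.8% higher and 12.1% lower). With E419Q, 22 of 35 passed, 8 higher and 14 lower, against 21.2% of all genes (10.4% higher and 10.8% lower). Between E419Q and WT, 14 of 35 passed, 5 higher and 9 lower in E419Q, against 8.0% of all genes (4.41% higher and 3.59% lower). Members called higher with WT numbered 6 with DESeq2 and 7 without WT A, and those called lower 7 without WT B. With E419Q, DESeq2 called 4 higher and 9 lower, and leaving out E419Q A gave 5 higher and E419Q B 9 lower. In E419Q against WT the members called lower numbered 5 with DESeq2, 4 without E419Q B and 5 without WT A. The members were more abundant than the genes they are set against, with a median level of 1230.5 units in BICR31 and 139 CPM in HCC95, against 383 units and 28.5 CPM over all tested genes, and the part of abundance in these shares was not tested. In all, 33 of 38 members passed in at least 1 comparison, SLC16A3 in all 4, and PFKL, ENO2, CA9, ANKRD37 and ANGPTL4 in none. The matching shares over all genes were not worked out, so these counts across comparisons have no background beside them. The share of all genes whose groups do not overlap was not worked out either. Separate groups are therefore described without a background, and with so few libraries a group they can also arise by chance. WT and E419Q were each set against the same pair of empty-vector libraries, so their values are given side by side. Parentheses after a change hold the log2 fold change, its standard error (SE) where given, and the adjusted p, and parentheses after a library left out or another setting hold the adjusted p there.

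**Figure D1:**
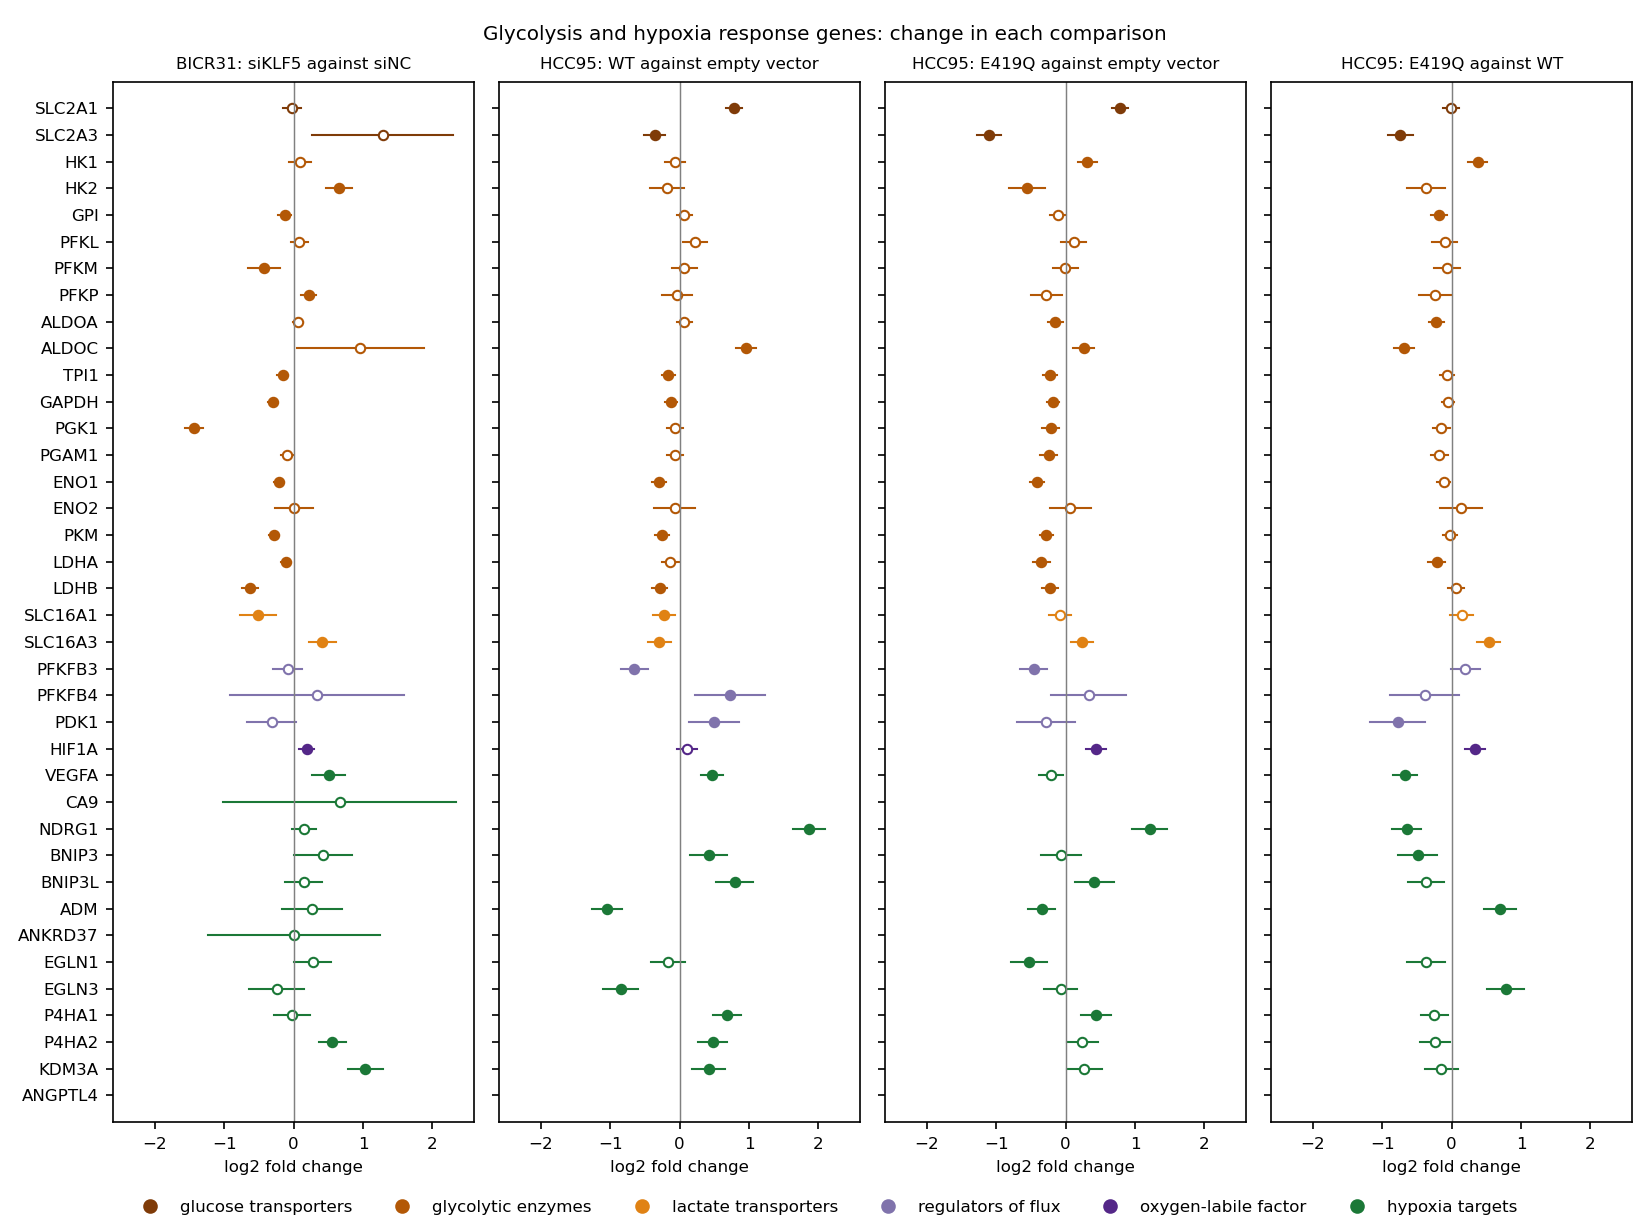
Log2 fold change (x axis) of each member (y axis) in the 4 comparisons, with its 95% interval as a line; filled points have an adjusted p under 0.05, colours give the role, and a member with no point was not tested. PGK1 at -1.44 with siKLF5 and NDRG1 at 1.86 with WT stand farthest from 0 among the filled points.

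Both glucose transporters changed in HCC95, in opposite directions. SLC2A1, which encodes GLUT1, had 697 and 712 CPM with E419Q and 689 and 708 CPM with WT, against 407 and 397 CPM with the empty vector. Both KLF5 forms lay above the empty vector and overlapped each other. The rise was 1.73-fold with WT (log2 fold change 0.79, SE 0.0549, edgeR adjusted p = 7.00e-10) and 1.72-fold with E419Q (0.78, SE 0.0553, edgeR adjusted p = 6.11e-10). The E419Q to WT fold was 0.996 (95% interval 0.922 to 1.08). In BICR31 SLC2A1 had 5529.9, 4975 and 5189 units with siKLF5, against 4882, 5499 and 5555 units with siNC. These groups overlapped, with a fold of 0.986 (0.899 to 1.08, limma adjusted p = 0.849). SLC2A3, which encodes the high-affinity transporter GLUT3, had 109.9 and 97.8 CPM with E419Q and 174 and 168 CPM with WT, against 229.9 and 207 CPM with the empty vector. The groups did not overlap: SLC2A3 was lower with WT (-0.36, adjusted p = 0.00126) and was 2.14-fold lower with E419Q (-1.10, SE 0.0829, edgeR adjusted p = 1.59e-09), and E419Q lay below WT (-0.74, adjusted p = 2.39e-06). In BICR31 SLC2A3 was near the limit of detection, at 61.5, 75.0 and 118 units with siKLF5, against 36.4, 27.4 and 36.1 units with siNC, where 1 count is worth 7.87 to 9.12 units. Its difference there did not pass (1.28, adjusted p = 0.0605), except with a pseudocount of 10 (adjusted p = 0.0492). Up to 5.51 counts per library were assigned to its near copy SLC2A14, against 3 to 15 for SLC2A3, and the split between them is uncertain.

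Of the enzymes from hexokinase to triose phosphate isomerase, which invest ATP and split the sugar, 2 rose and 3 fell of 9 with siKLF5, 1 rose and 1 fell with WT, 2 rose and 3 fell with E419Q, and 1 rose and 3 fell in E419Q against WT. These calls were 55.6%, 22.2%, 55.6% and 44.4% of the 9, beside 26.1%, 22.9%, 21.2% and 8.0% of all genes. The share with WT was near that of all genes. With E419Q, 1 rose and 1 fell without E419Q B and with DESeq2, and 1 rose without E419Q A. The falls in E419Q against WT numbered 1 without E419Q B or WT A. With WT, 2 rose without empty vector B, and 0 fell without empty vector B, WT A or WT B. HK2, the inducible hexokinase, had 2334, 2500 and 2394 units with siKLF5, against 1373, 1550.2 and 1680.2 units with siNC. The groups lay apart, and HK2 rose 1.57-fold (0.65, SE 0.0861, limma adjusted p = 2.23e-05). In HCC95 it had 55.0 and 43.7 CPM with E419Q and 71.1 and 55.1 CPM with WT, against 70.9 and 70.8 CPM with the empty vector. It fell with E419Q (-0.56, SE 0.127, edgeR adjusted p = 0.00267), while WT overlapped the empty vector (-0.19, adjusted p = 0.274). HK1, the constitutive hexokinase, moved the other way, at 267 and 273 CPM with E419Q and 209 and 202 CPM with WT, against 218 and 209 CPM with the empty vector. E419Q lay above both other groups (0.31, SE 0.0661, edgeR adjusted p = 0.00149 against the empty vector, and 0.38, adjusted p = 0.000509 against WT). In BICR31 HK1 had 2646, 2508 and 2803 units with siKLF5, against 2382, 2416 and 2674 units with siNC, which overlapped (0.09, adjusted p = 0.414). The HK2 fall with E419Q was lost without E419Q B (0.109) and with DESeq2 (0.0779), and HK2 passed in E419Q against WT without WT B (0.0261) and with no filter on low counts (0.0399).

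GPI, the isomerase that makes fructose 6-phosphate, had 12867, 13625 and 14558 units with siKLF5, against 14891, 15128 and 14804 units with siNC, groups that did not overlap. The fall passed narrowly (-0.13, SE 0.0454, limma adjusted p = 0.0463). In HCC95 it had 676 and 652 CPM with E419Q and 763 and 727 CPM with WT, against 689 and 718 CPM with the empty vector, lowest with E419Q, and only E419Q against WT passed (-0.19, adjusted p = 0.0394). The 3 phosphofructokinase genes, which encode the committed step, diverged with siKLF5. PFKM, the muscle-type subunit, had 846, 875 and 1047 units with siKLF5, against 1318, 1213 and 1183 units with siNC. PFKM fell (-0.43, SE 0.108, limma adjusted p = 0.00684). PFKP, the platelet-type subunit, had 6409, 6658 and 6764 units with siKLF5, against 5527, 5836 and 5682 units with siNC. PFKP rose (0.22, SE 0.0511, limma adjusted p = 0.00402). Neither PFKM nor PFKP showed overlapping groups in BICR31, and neither passed in the HCC95 comparisons, where PFKM had 98.2 and 104 CPM with E419Q and 109.9 and 100.2 CPM with WT, against 102 and 97.1 CPM with the empty vector. PFKP in HCC95 had 85.6 and 90.6 CPM with E419Q and 107 and 98.4 CPM with WT, against 89.7 and 117 CPM with the empty vector, and its empty-vector libraries spanned the widest range of the 3 groups. PFKL, the liver-type subunit, ranged from 4836 to 5433 units and from 137 to 183 CPM and passed in no comparison. After quantile normalisation the GPI fall with siKLF5 was -0.21. The GPI call with siKLF5 was lost without siKLF5 A (0.208), without siKLF5 B (0.0948), without siNC A (0.0905), without siNC B (0.128), without siNC C (0.0940) and with no filter on low values (0.104). Its call between E419Q and WT was lost without E419Q A (0.101), without E419Q B (0.263), without WT A (0.303), without WT B (0.0718) and with DESeq2 (0.161). PFKL passed without empty vector B (adjusted p = 0.00372 with WT and 0.0360 with E419Q), and PFKP with E419Q without empty vector A (0.00277) and with no filter on low counts (0.0256).

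ALDOC, the aldolase isoform of brain, had 241 and 248 CPM with E419Q and 413 and 368 CPM with WT, against 207 and 193 CPM with the empty vector. The 3 groups were separate and WT the highest: ALDOC rose 1.94-fold with WT (0.95, SE 0.0690, edgeR adjusted p = 1.22e-09) and 1.20-fold with E419Q (0.26, SE 0.0729, edgeR adjusted p = 0.0118). It was 1.62-fold lower in E419Q than in WT (-0.69, adjusted p = 2.42e-07). In BICR31 ALDOC was scarce, at 147, 83.3 and 70.9 units with siKLF5, against 54.5, 36.5 and 56.8 units with siNC, and its difference did not pass (0.96, adjusted p = 0.118). ALDOA, the ubiquitous aldolase, had 1360.4 and 1288 CPM with E419Q and 1556 and 1493 CPM with WT, against 1404 and 1475 CPM with the empty vector. E419Q was the lowest group, below the empty vector (-0.15, adjusted p = 0.0384) and below WT (-0.22, adjusted p = 0.00630). In BICR31 ALDOA had 40837, 42533 and 44142 units with siKLF5, against 39227, 42165 and 40821 units with siNC, with overlap (0.06, adjusted p = 0.229), and passed as higher only after quantile normalisation (log2 fold change 0.20, adjusted p = 0.000100). TPI1, which interconverts the 3-carbon sugars, had 18496, 18000 and 19157 units with siKLF5, against 20471, 21519.9 and 20081 units with siNC. TPI1 fell (-0.16, SE 0.0393, limma adjusted p = 0.00641). Its HCC95 values were 1329 and 1297 CPM with E419Q and 1352 and 1356 CPM with WT, against 1487 and 1514 CPM with the empty vector. Both KLF5 forms lay below the empty vector (WT -0.16, adjusted p = 0.0179, and E419Q -0.22, adjusted p = 0.00168). The E419Q call of ALDOC was lost without E419Q A (0.0537), without E419Q B (0.113), without empty vector B (0.112) and with DESeq2 (0.143). The E419Q call of ALDOA was lost without E419Q B (0.279), without empty vector B (0.163), with only the comparison's 4 libraries (0.0605) and with DESeq2 (0.0650). ALDOA in E419Q against WT was lost without E419Q B (0.127) and without WT A (0.106), and TPI1 with WT without empty vector B (0.0563), without WT A (0.0895) and without WT B (0.0880).

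The enzymes from GAPDH to pyruvate kinase, which yield ATP, fell or did not pass in every comparison: 4 of 6 fell with siKLF5 (ENO1 among them, which was higher after quantile normalisation), 3 with WT and 5 with E419Q. Between E419Q and WT 0 passed with edgeR, where 3 had an unadjusted p under 0.05 and 1 fell with only those 4 libraries or with no filter on low counts. Without E419Q B, 3 fell with E419Q. Over all genes, 10.8% were called lower with siKLF5, 12.1% with WT, 10.8% with E419Q and 3.59% in E419Q against WT. PGK1 (ENSG00000102144.9), the phosphoglycerate kinase that makes the first ATP of the chain, had 3509, 3183 and 3575 units with siKLF5, against 8973, 9657 and 9115 units with siNC. Every siKLF5 library lay below every siNC library, and PGK1 was 2.70-fold lower (-1.44, SE 0.0584, limma adjusted p = 1.85e-11), beside a log2 fold change of -1.40 for KLF5. In HCC95 PGK1 had 504 and 499 CPM with E419Q and 554 and 544 CPM with WT, against 549.6 and 589 CPM with the empty vector. It was lower with E419Q (-0.21, SE 0.0572, edgeR adjusted p = 0.00895) and WT overlapped the empty vector (-0.07, adjusted p = 0.439). GAPDH, the dehydrogenase that often serves as a loading control, had 88512, 87137 and 93396 units with siKLF5, against 107695, 113230 and 110778 units with siNC. GAPDH fell without overlap (-0.30, SE 0.0287, limma adjusted p = 5.69e-07). It took 0.486% to 0.517% of all counts in siKLF5 libraries, against 0.616% to 0.642% in siNC libraries. In HCC95 GAPDH had 6479 and 6307 CPM with E419Q and 6662 and 6461 CPM with WT, against 7182 and 7004 CPM with the empty vector. GAPDH fell with WT (-0.12, adjusted p = 0.0366) and with E419Q (-0.18, adjusted p = 0.00333). The PGK1 call with E419Q was lost without E419Q B (0.0764) and without empty vector B (0.0876). The GAPDH call with WT was lost without empty vector A (0.0704), without WT A (0.0615), without WT B (0.218) and with only the comparison's 4 libraries (0.0624).

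ENO1, the main enolase, had 1843 and 1807 CPM with E419Q and 1989 and 1911 CPM with WT, against 2385 and 2368 CPM with the empty vector. Both KLF5 forms lay below the empty vector (WT -0.30, SE 0.0466, edgeR adjusted p = 6.46e-05, and E419Q -0.41, SE 0.0468, edgeR adjusted p = 8.66e-07). In BICR31 ENO1 had 46014, 48042 and 50716 units with siKLF5, against 55954, 55560.1 and 55482 units with siNC. This was a fall on the deposited scale (-0.21, SE 0.0331, limma adjusted p = 0.000156) but a rise after quantile normalisation (0.12, adjusted p = 0.0362). PKM, a pyruvate kinase gene, had 39071, 39508 and 40937 units with siKLF5, against 47391, 50426 and 47677 units with siNC. PKM fell (-0.28, SE 0.0324, limma adjusted p = 4.77e-06), by 0.09 on the log2 scale after quantile normalisation. In HCC95 PKM had 2646 and 2436 CPM with E419Q and 2579 and 2534 CPM with WT, against 2988 and 3037 CPM with the empty vector. PKM fell with WT (-0.25, adjusted p = 0.000637) and with E419Q (-0.28, adjusted p = 0.000212). PGAM1, the mutase, had 501 and 490.4 CPM with E419Q and 535 and 572 CPM with WT, against 563 and 588 CPM with the empty vector, and of these only the fall with E419Q passed (-0.25, adjusted p = 0.00344). In BICR31 PGAM1 had 10790, 10954 and 10969.6 units with siKLF5, against 11382, 11596 and 12051 units with siNC, groups that did not overlap but did not pass (-0.10, adjusted p = 0.0991). ENO2, the neuronal enolase, ranged from 534 to 638 units and from 35.4 to 49.8 CPM and passed nowhere. PGAM1 lost its E419Q call without E419Q B (0.0504) and passed against WT with only those 4 libraries (0.0456) and with no filter on low counts (0.0352).

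LDHA and LDHB, the subunits of lactate dehydrogenase, were both lower with siKLF5. LDHB, the subunit favoured in oxidative tissues, had 4527, 4883 and 5102 units with siKLF5, against 7400, 7596 and 7489 units with siNC, and was 1.55-fold lower with no overlap (-0.63, SE 0.0551, limma adjusted p = 2.17e-07). LDHA, the subunit of glycolytic tissues and a classic HIF target, had 18477, 17948 and 17882 units with siKLF5, against 20112, 19114 and 19402 units with siNC, also without overlap, and fell by less (-0.11, SE 0.0369, limma adjusted p = 0.0356). In HCC95 LDHB had 936 and 917 CPM with E419Q and 868 and 883 CPM with WT, against 1024 and 1095 CPM with the empty vector. It fell with WT (-0.29, adjusted p = 0.000331) and with E419Q (-0.23, adjusted p = 0.00326). LDHA had 439 and 425 CPM with E419Q and 514 and 476 CPM with WT, against 541 and 537 CPM with the empty vector, lowest with E419Q. Its fall passed with E419Q (-0.35, SE 0.0590, edgeR adjusted p = 0.000143) and in E419Q against WT (-0.21, adjusted p = 0.0259), but not with WT (-0.14, adjusted p = 0.0974). After quantile normalisation the LDHA fall with siKLF5 was -0.18. LDHA lost its siKLF5 call without siKLF5 B (0.0731), without siKLF5 C (0.101), without siNC A (0.137), without siNC C (0.0761) and with no filter on low values (0.0886). Its call between E419Q and WT was lost without E419Q A (0.0884), without E419Q B (0.207), without WT A (0.301) and with DESeq2 (0.153).

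**Figure D2:**
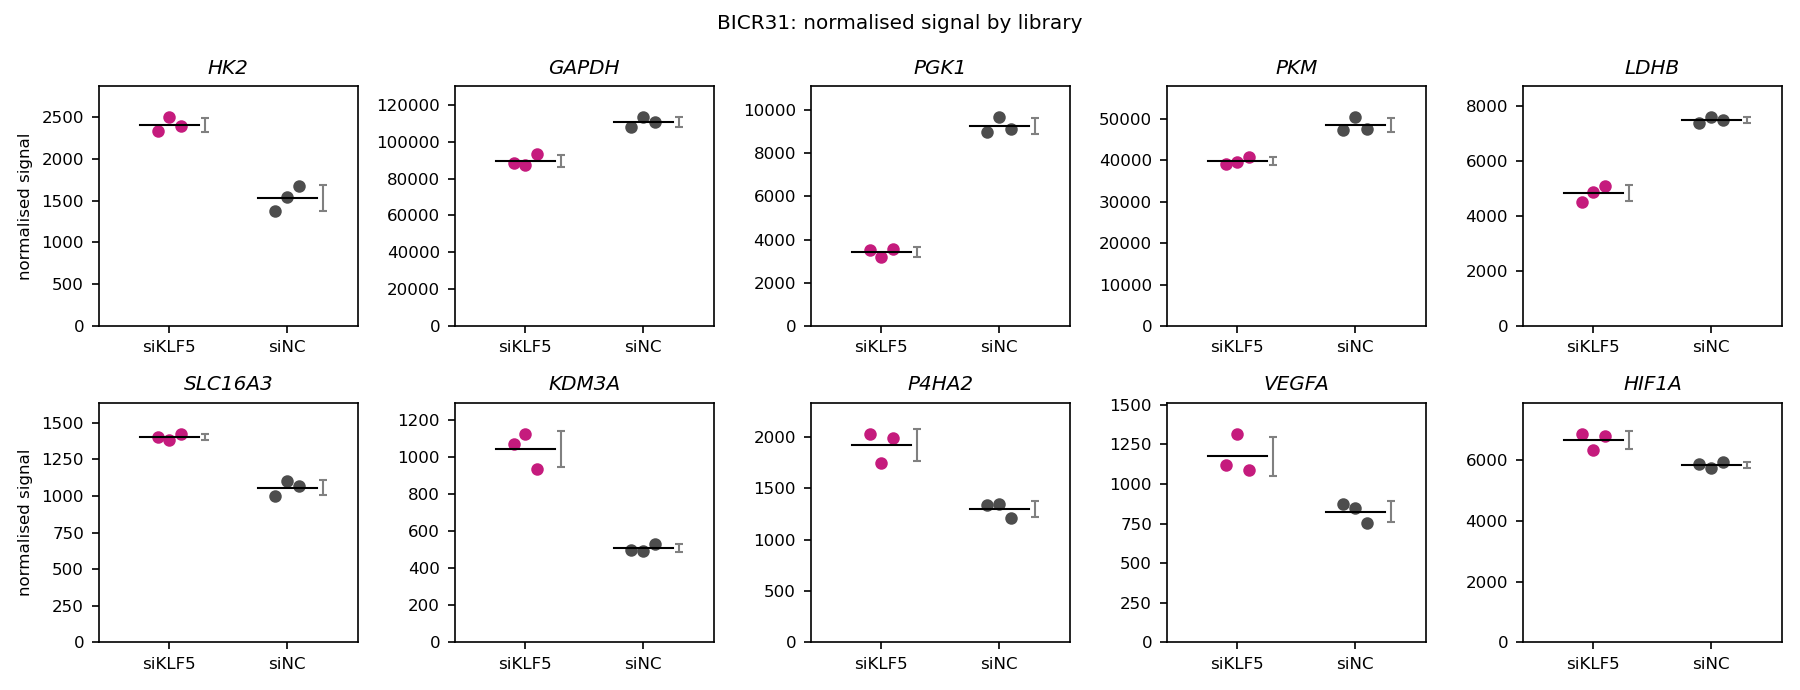
Normalised signal (units, y axis, from 0) of 10 members in the 3 siKLF5 and 3 siNC libraries of BICR31; points are libraries, black bars group means and grey bars SDs. PGK1 lies at 3183 to 3575 units with siKLF5, against 8973 to 9657 units with siNC. The 10 members shown all passed with siKLF5, and members with overlapping groups, such as SLC2A1 and HK1, are not shown.

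Per length of transcript (TPM, which allows genes to be compared within HCC95), GAPDH was the most abundant member in every HCC95 group, at 8256 TPM with E419Q and 8393 TPM with WT, against 9278 TPM with the empty vector. ALDOA followed at 2287 TPM with E419Q and 2704 TPM with WT, against 2511 TPM with the empty vector. ALDOC stood at 241, 383 and 199.8 TPM in the same groups, so the isoform that rose remained well under ALDOA in level. HK1 stood at 115 TPM with E419Q and 86.2 TPM with WT, against 91.4 TPM with the empty vector, and HK2 at 12.9, 16.2 and 18.7 TPM. The enzymes summed to 1.67% to 1.77% of all counts in siKLF5 libraries, against 2.0% to 2.06% in siNC libraries. In HCC95 they summed to 1.71% to 1.77% with E419Q and 1.80% to 1.85% with WT, against 1.97% to 1.98% with the empty vector, so within each line the ranges of the groups were separate.

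The lactate transporters did not move together. SLC16A3, which encodes MCT4, the exporter of glycolytic cells, had 1405, 1383 and 1425 units with siKLF5, against 1000, 1103 and 1066 units with siNC. SLC16A3 rose without overlap (0.41, SE 0.0917, limma adjusted p = 0.00278). In HCC95 it had 249 and 217 CPM with E419Q and 161 and 157 CPM with WT, against 182 and 204 CPM with the empty vector. It fell with WT (-0.29, adjusted p = 0.00964) and rose with E419Q (0.24, adjusted p = 0.0324). It was 1.45-fold higher in E419Q than in WT (0.53, SE 0.0801, edgeR adjusted p = 8.01e-05), a difference that no single library decided. SLC16A1, which encodes MCT1, had 633, 658 and 638 units with siKLF5, against 1055, 921 and 795 units with siNC. SLC16A1 fell (-0.51, SE 0.124, limma adjusted p = 0.00517). In HCC95 SLC16A1 had 137 and 146 CPM with E419Q and 126 and 127 CPM with WT, against 148 and 145 CPM with the empty vector. SLC16A1 fell with WT (-0.22, adjusted p = 0.0414) while E419Q overlapped the empty vector (-0.08, adjusted p = 0.533). Its mean TPM went the other way, at 85.5 with E419Q and 72.5 with WT, against 59.8 with the empty vector. The direction of SLC16A1 in HCC95 therefore depended on the unit. The SLC16A3 call with WT was lost without empty vector B (0.130), without WT B (0.0851) and with DESeq2 (0.0926). The SLC16A3 call with E419Q was lost without E419Q A (0.393), without empty vector A (0.221) and with DESeq2 (0.332). The SLC16A1 call with WT was lost without empty vector A (0.118), without empty vector B (0.0817), without WT A (0.157), without WT B (0.147), with only the comparison's 4 libraries (0.0533), with DESeq2 (0.321) and with no filter on low counts (0.0530).

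PFKFB3 and PFKFB4 encode enzymes that make fructose 2,6-bisphosphate, the activator of phosphofructokinase, and PDK1 encodes a kinase that shuts pyruvate dehydrogenase. PFKFB3 had 74.8 and 79.6 CPM with E419Q and 66.2 and 66.9 CPM with WT, against 98.1 and 109 CPM with the empty vector. Both KLF5 forms lay below the empty vector (WT -0.65, SE 0.0931, edgeR adjusted p = 2.01e-05, and E419Q -0.46, SE 0.0933, edgeR adjusted p = 0.00100). In BICR31 PFKFB3 had 1233, 1092 and 1228 units with siKLF5, against 1245, 1349.6 and 1174 units with siNC, with overlap (-0.09, adjusted p = 0.576). PFKFB4 was low, at 9.58 and 11.2 CPM with E419Q and 14.5 and 12.5 CPM with WT, against 9.26 and 7.18 CPM with the empty vector. PFKFB4 rose with WT (0.73, SE 0.241, edgeR adjusted p = 0.0320). Its BICR31 values of 32.9, 71.8 and 63.0 units with siKLF5, against 54.5, 72.9 and 18.1 units with siNC rest on 2 to 8.62 counts per library. PDK1 had 15.3 and 12.2 CPM with E419Q and 22.2 and 24.0 CPM with WT, against 17.9 and 15.1 CPM with the empty vector. It was 1.71-fold lower in E419Q than in WT (-0.78, SE 0.190, edgeR adjusted p = 0.0103) and rose with WT (0.49, adjusted p = 0.0459), and E419Q overlapped the empty vector. In BICR31 PDK1 had 288, 317 and 323 units with siKLF5, against 391, 392 and 370.4 units with siNC, groups that did not overlap but did not pass (-0.32, adjusted p = 0.182). With WT, the PFKFB4 call was lost without empty vector B (0.238), without WT A (0.193), without WT B (0.0663) and with DESeq2 (0.426). The PDK1 call with WT was lost without empty vector B (0.279), without WT A (0.108), without WT B (0.224), with DESeq2 (0.530) and with no filter on low counts (0.0624). The PDK1 difference between E419Q and WT was lost without E419Q B (0.166), without WT B (0.108) and with DESeq2 (0.454), and the PFKFB3 fall with E419Q with DESeq2 (0.0607).

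HIF1A, the oxygen-labile subunit itself, had 239.7 and 241 CPM with E419Q and 189.9 and 186 CPM with WT, against 179 and 168 CPM with the empty vector. E419Q lay above both other groups (0.44, SE 0.0692, edgeR adjusted p = 5.96e-05 against the empty vector, and 0.34, adjusted p = 0.00226 against WT), and WT did not pass (0.11, adjusted p = 0.297). In BICR31 HIF1A had 6853, 6308 and 6795 units with siKLF5, against 5854, 5736 and 5926 units with siNC, a rise without overlap (0.19, SE 0.0523, limma adjusted p = 0.0131). That rise was lost without siKLF5 A (0.0599), without siKLF5 C (0.0586) and with quantile normalisation (0.0816), and the difference between E419Q and WT with DESeq2 (0.0583).

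Of the 13 hypoxia targets, 12 were tested in BICR31 and 3 rose with siKLF5 while 0 fell with limma, where 5 had an unadjusted p under 0.05. These 3 are 25.0% of the targets tested, near the 26.1% of all genes called there. KDM3A (ENSG00000115548.12), a histone H3 lysine 9 demethylase, had 1068, 1125 and 937 units with siKLF5, against 500, 492 and 533 units with siNC. Its lowest siKLF5 library was well above its highest siNC library, and KDM3A rose 2.05-fold (1.03, SE 0.120, limma adjusted p = 5.80e-06). P4HA2, a subunit of the collagen prolyl hydroxylase, had 2029.5, 1742 and 1984 units with siKLF5, against 1336, 1349.6 and 1210.5 units with siNC. P4HA2 rose (0.56, SE 0.0903, limma adjusted p = 0.000170). VEGFA, the main growth factor of blood vessels, had 1119.9, 1317 and 1087 units with siKLF5, against 873, 851 and 752 units with siNC. VEGFA rose too (0.51, SE 0.112, limma adjusted p = 0.00259). None of these 3 genes showed overlapping groups or lost its call without a library. How many of all genes have separate groups was not worked out. NDRG1 had 1750.2, 1808 and 1701 units with siKLF5, against 1536, 1614 and 1599 units with siNC, and EGLN3 had 296, 267 and 236 units with siKLF5, against 300, 347 and 298 units with siNC, groups that did not overlap but did not pass (adjusted p = 0.200 and 0.382). BNIP3 had 304, 333 and 283 units with siKLF5, against 273, 209.7 and 208 units with siNC, also apart and also not passing (0.42, adjusted p = 0.137). The other targets overlapped: BNIP3L had 641, 567 and 629.9 units with siKLF5, against 536, 574 and 551 units with siNC, and ADM had 296, 333 and 331 units with siKLF5, against 273, 328 and 208 units with siNC. EGLN1 had 887, 750 and 850.4 units with siKLF5, against 591, 757 and 714 units with siNC, and P4HA1 599.8, 683 and 661 units with siKLF5, against 645, 675 and 659 units with siNC.

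With WT in HCC95, 7 of the 10 hypoxia targets tested rose and 2 fell. NDRG1 (ENSG00000104419.10), a stress-induced gene strongly raised by low oxygen, had 126 and 116 CPM with E419Q and 209.8 and 164 CPM with WT, against 55.0 and 47.6 CPM with the empty vector. The 3 groups were separate, and NDRG1 rose 3.63-fold with WT (95% interval 3.09 to 4.26, edgeR adjusted p = 6.24e-11) and 2.32-fold with E419Q (1.21, SE 0.121, edgeR adjusted p = 1.23e-07). It was lower in E419Q than in WT (-0.65, SE 0.101, edgeR adjusted p = 0.000115). BNIP3 and BNIP3L encode receptors that mark mitochondria for autophagy. BNIP3L had 36.4 and 36.0 CPM with E419Q and 49.2 and 43.8 CPM with WT, against 26.6 and 26.5 CPM with the empty vector. BNIP3L rose with WT (0.79, SE 0.127, edgeR adjusted p = 8.03e-05) as well as with E419Q (0.42, adjusted p = 0.0326). BNIP3 had 37.6 and 35.3 CPM with E419Q and 57.0 and 44.7 CPM with WT, against 37.0 and 37.7 CPM with the empty vector. WT was above the empty vector (0.42, adjusted p = 0.0189), with E419Q below WT (-0.49, adjusted p = 0.0222). BNIP3 counts are uncertain, since rows named as its pseudogenes held up to 18.5% of the summed reads. The BNIP3L call with E419Q was lost without E419Q A (0.131), without E419Q B (0.126), without empty vector A (0.0772), without empty vector B (0.119), with DESeq2 (0.50) and with no filter on low counts (0.0652). The BNIP3 call with WT was lost without empty vector A (0.0555), without empty vector B (0.0690), without WT A (0.320) and with DESeq2 (0.337). Its call between E419Q and WT was lost without E419Q A (0.0990), without E419Q B (0.191), without WT A (0.341) and with DESeq2 (0.529). Without WT A its log2 fold changes were 0.24 with WT and -0.31 in E419Q against WT.

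VEGFA had 115 and 111 CPM with E419Q and 185 and 170.3 CPM with WT, against 132 and 123 CPM with the empty vector. WT was the highest group, above the empty vector (0.47, SE 0.0771, edgeR adjusted p = 0.000119), and E419Q was 1.59-fold lower than WT (-0.67, SE 0.0810, edgeR adjusted p = 3.94e-06). P4HA1, the other catalytic subunit of the collagen hydroxylase, had 80.7 and 77.3 CPM with E419Q and 94.7 and 90.7 CPM with WT, against 53.0 and 60.3 CPM with the empty vector. P4HA1 rose with WT (0.69, SE 0.0974, edgeR adjusted p = 1.88e-05) and also with E419Q (0.44, adjusted p = 0.00330). P4HA2 had 58.6 and 66.3 CPM with E419Q and 72.5 and 72.9 CPM with WT, against 53.5 and 50.4 CPM with the empty vector. P4HA2 rose with WT (0.48, adjusted p = 0.00154). KDM3A had 43.6 and 45.5 CPM with E419Q and 48.9 and 48.8 CPM with WT, against 35.3 and 36.8 CPM with the empty vector, and also rose with WT (0.42, adjusted p = 0.00965). Neither P4HA2 nor KDM3A passed with E419Q (adjusted p = 0.120 and 0.117), and E419Q was not shown to differ from WT for either (adjusted p = 0.200 and 0.545). The KDM3A call with WT was lost without WT A (0.0596), without WT B (0.0570) and with DESeq2 (0.298), the P4HA2 call with DESeq2 (0.109), and the P4HA1 call with E419Q with DESeq2 (0.130).

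ADM and EGLN3 were the hypoxia targets that fell with WT. ADM (ENSG00000148926.5), the vasodilator adrenomedullin, had 71.2 and 70.4 CPM with E419Q and 40.1 and 45.8 CPM with WT, against 87.4 and 88.9 CPM with the empty vector. WT was 2.06-fold below the empty vector (-1.04, SE 0.102, edgeR adjusted p = 1.18e-07). E419Q lay between (-0.35, adjusted p = 0.0114), and E419Q was 1.62-fold above WT (0.70, SE 0.109, edgeR adjusted p = 0.000122). EGLN3, the most hypoxia-inducible of the HIF prolyl hydroxylases, had 57.3 and 52.0 CPM with E419Q and 33.8 and 29.1 CPM with WT, against 53.0 and 58.6 CPM with the empty vector. WT was 1.80-fold below the empty vector (-0.85, SE 0.122, edgeR adjusted p = 2.26e-05). E419Q overlapped the empty vector (-0.07, adjusted p = 0.725), and E419Q was 1.72-fold above WT (0.78, SE 0.128, edgeR adjusted p = 0.000198). EGLN1, the hydroxylase that sets HIF stability in normal oxygen, had 32.9 and 41.3 CPM with E419Q and 49.8 and 45.3 CPM with WT, against 50.1 and 54.7 CPM with the empty vector. EGLN1 fell with E419Q (-0.53, SE 0.127, edgeR adjusted p = 0.00416). The EGLN1 call was lost without E419Q A (0.0994) and with DESeq2 (0.163). The ADM call with E419Q was lost without E419Q A (0.0632), without E419Q B (0.0898), without empty vector B (0.0558) and with DESeq2 (0.314).

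**Figure D3:**
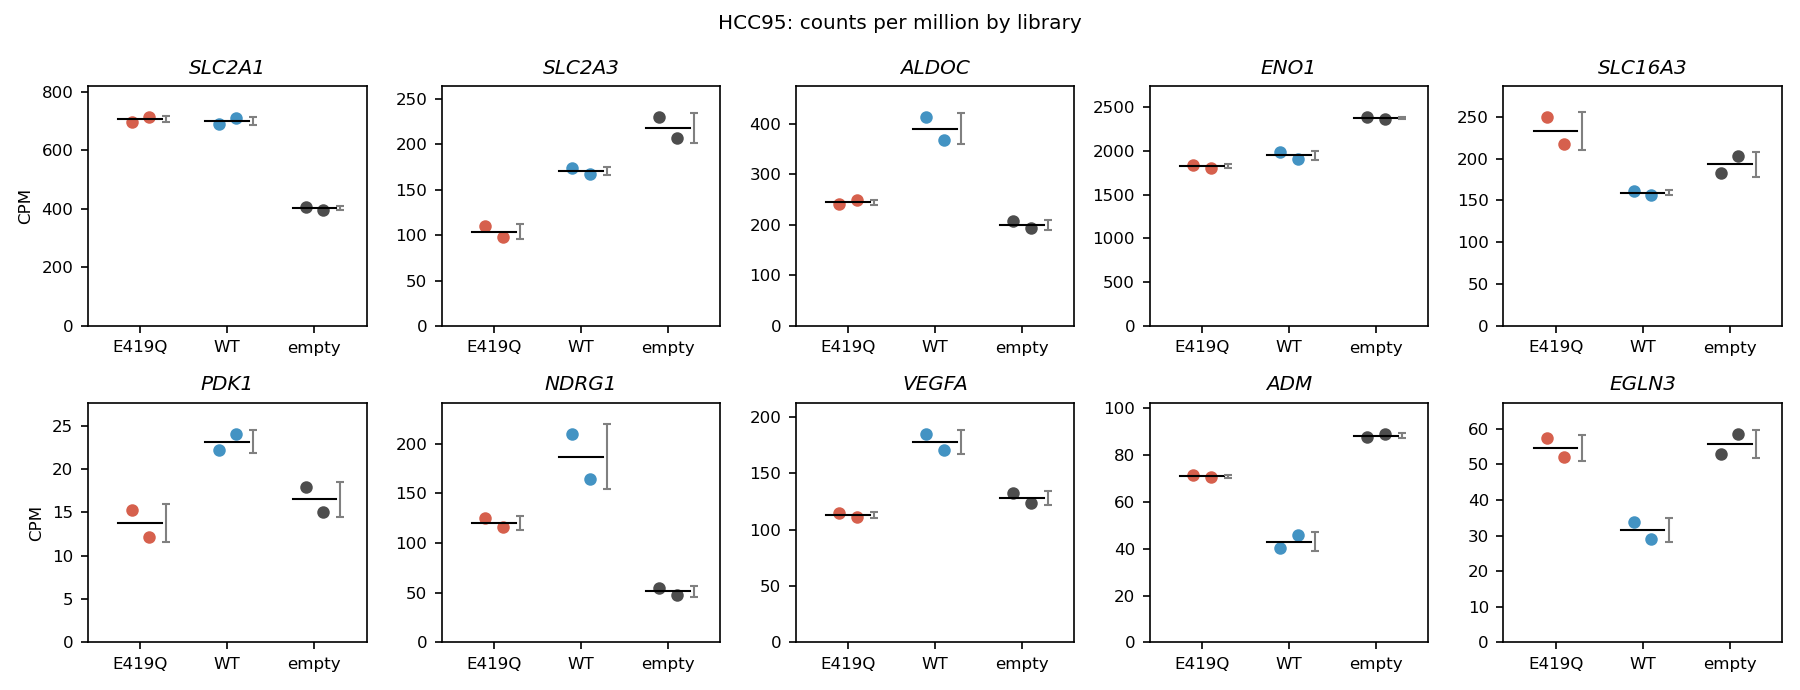
Counts scaled to the library total (CPM, y axis, from 0) of 10 members in the 2 E419Q, 2 WT and 2 empty-vector libraries of HCC95; points are libraries, black bars group means and grey bars SDs. NDRG1 lies at 164 to 210 CPM with WT and ADM at 40.1 to 45.8 CPM with WT, against 47.6 to 55.0 and 87.4 to 88.9 CPM with the empty vector.

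The hypoxia targets CA9, ANKRD37 and ANGPTL4 were near the limit of detection. CA9, the surface carbonic anhydrase used as a hypoxia marker, had 24.7, 33.3 and 23.6 units with siKLF5, against 9.09, 27.4 and 18.1 units with siNC. These are 10 counts over the siKLF5 libraries and 6 over the siNC libraries, and did not pass (0.66, adjusted p = 0.593). In HCC95 it was not tested, with 0 counts over the E419Q libraries, 2 over the WT libraries and 4 over the empty-vector libraries. ANKRD37 ranged from 23.6 to 90.4 units in BICR31, with overlapping groups, and was not tested in HCC95, where it had 5 counts with E419Q and 13 with WT, against 17 with the empty vector. ANGPTL4 was tested in neither line: it had 0 counts in the siKLF5 libraries and 2 in the siNC libraries, and 1 count in the E419Q libraries and 0 in the WT and empty-vector libraries. Small changes of these genes were not detectable at this depth.

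Set beside each other, the enzymes and the hypoxia targets differed in the direction of their medians in 3 of the 4 comparisons. In 1 of these, E419Q against the empty vector, the targets split evenly, 5 above 0 and 5 below. With siKLF5 the median log2 fold change was -0.11 over the 17 enzymes, 0.27 over the 12 targets tested and 0.04 over all genes. With WT it was -0.07 over the enzymes, 0.44 over the 10 targets tested and 0.00 over all genes, and the enzyme median was -0.11 without empty vector A. With E419Q it was -0.21 over the enzymes and 0.09 over the targets, beside 0.00 over all genes. Between E419Q and WT both medians were below 0, at -0.11 for the enzymes and -0.31 for the targets. Over all genes the shares called were 26.1% with siKLF5, 22.9% with WT, 21.2% with E419Q and 8.0% in E419Q against WT. With siKLF5, 2 enzymes rose and 9 fell (11 of 17, or 64.7%), and after quantile normalisation 4 rose and 8 fell, with ALDOA and ENO1 as rises. With WT, 1 rose and 5 fell (35.3%), and 3 fell without WT A or WT B, while 2 rose without empty vector B. With E419Q, 2 rose and 10 fell (70.6%), and 1 rose and 6 fell without E419Q B, with 1 rise also without E419Q A and with DESeq2. In E419Q against WT, 1 rose and 4 fell (29.4%), and the falls numbered 2 without E419Q A or with DESeq2 and 1 without E419Q B or WT A. Of the targets, 3 of 12 rose with siKLF5 (25.0%), a share near the 26.1% of all genes called there. With WT, 7 rose and 2 fell (90.0% of 10, against 22.9% of all genes), and 4 rose with DESeq2. With E419Q, 3 rose and 2 fell (50%, against 21.2% of all genes). Counts were 2 and 0 without E419Q A, while 2 rose and 1 fell without E419Q B or empty vector B, and 1 rose and 0 fell with DESeq2. In E419Q against WT, 2 rose and 3 fell (50%, against 8.0% of all genes). The targets summed to 0.0484% to 0.0504% of all counts in siKLF5 libraries, against 0.0392% to 0.0413% in siNC libraries. In HCC95 they summed to 0.0651% to 0.0660% with E419Q and 0.0758% to 0.0842% with WT, against 0.0586% to 0.0587% with the empty vector. NDRG1 had the largest log2 fold changes of the targets there (1.86 with WT and 1.21 with E419Q). It made up most of the rise of the sum with WT and about all of it with E419Q. These medians and sums describe lists chosen with earlier results known and carry no test.

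**Figure D4:**
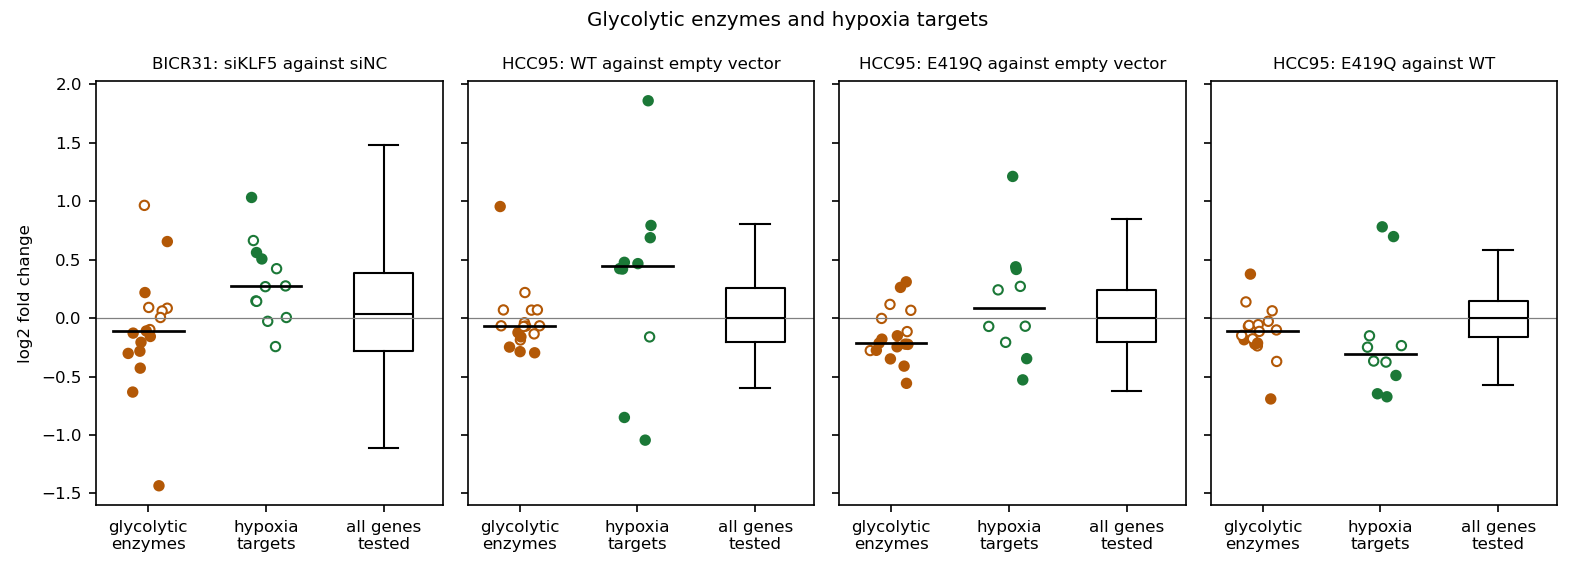
Log2 fold change (y axis) of the glycolytic enzymes and the hypoxia targets in the 4 comparisons; points are genes (filled where the adjusted p is under 0.05), black bars medians, and the boxes show the quartiles of all genes tested with whiskers at the 5th and 95th percentiles. The bars of the targets stand at 0.27 with siKLF5 and 0.44 with WT and those of the enzymes at -0.11 and -0.07, and in E419Q against WT at -0.31 and -0.11.

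KLF5 fell in BICR31 and rose in HCC95, and the 2 lines share no library, so the members' calls were set side by side. With siKLF5 and with WT, 10 members passed in both, and 9 of them moved in the same direction: TPI1, GAPDH, ENO1 (higher with siKLF5 after quantile normalisation), PKM, LDHB and SLC16A1 were lower in both, and VEGFA, P4HA2 and KDM3A higher in both. SLC16A1 was lower with WT in counts but not in TPM. SLC16A3 was higher with siKLF5 and lower with WT. Members passing in both numbered 5 without WT B, all in the same direction, 6 without WT A, of which 5 were, and 6 with DESeq2, all in the same direction. Over all genes that passed in both, 603 of 1208 (49.9%) moved in the same direction, against 459 of 880 without WT B, 368 of 761 without WT A and 274 of 520 with DESeq2. With siKLF5 and with E419Q, 10 members passed in both and 9 moved in the same direction, TPI1, GAPDH, PGK1, ENO1 (with the same exception), PKM, LDHA and LDHB lower and SLC16A3 and HIF1A higher, while HK2 was higher with siKLF5 and lower with E419Q. After quantile normalisation of BICR31, 8 of 10 members with WT and 7 of 10 with E419Q moved in the same direction. Over all genes the share with E419Q was 662 of 1136 (58.3%).

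**Figure D5:**
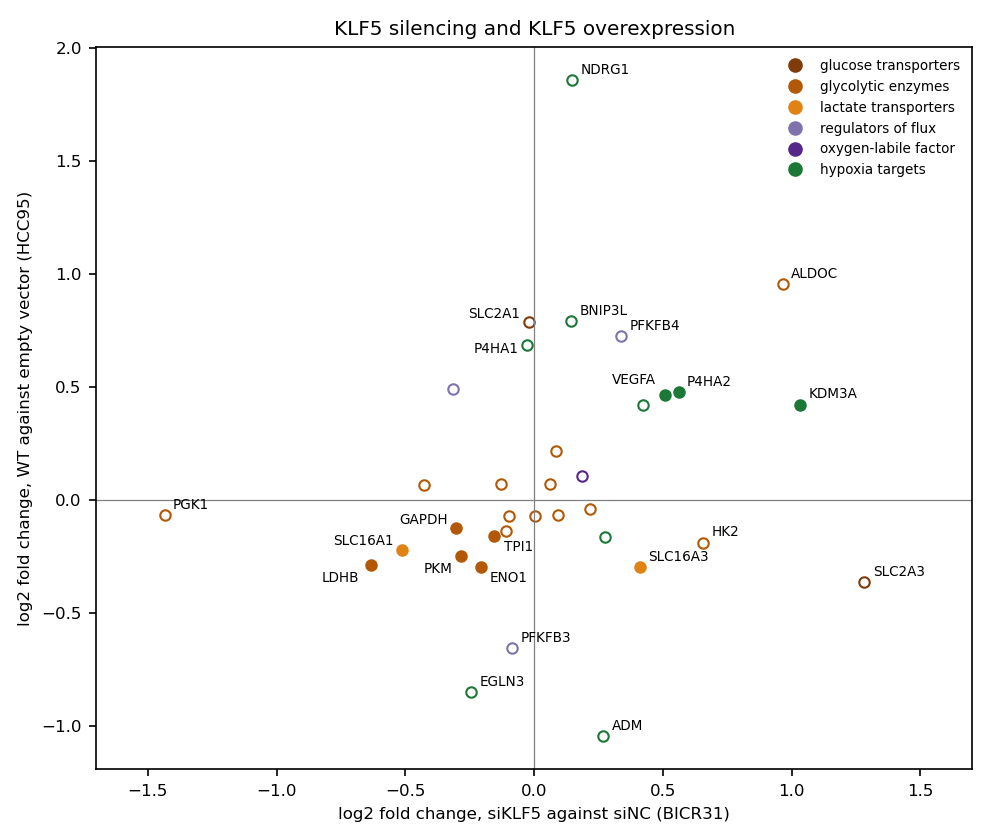
Log2 fold change of the members tested in both lines, with siKLF5 against siNC in BICR31 on the x axis and WT against the empty vector in HCC95 on the y axis; filled points passed in both, colours give the role, and names are given for filled points and large changes. Of the 10 filled points, 9 lie in the lower left or upper right, and SLC16A3 (0.41 and -0.29) does not; ENO1, at -0.21 on the x axis, was at 0.12 after quantile normalisation.

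Of 22 genes of pyruvate dehydrogenase and the TCA cycle, 1 rose and 5 fell with siKLF5, among them CS, citrate synthase (-0.41, adjusted p = 0.000136), and DLAT, a subunit of pyruvate dehydrogenase (-0.56, adjusted p = 0.000631). This was 27.3% of the list, near the 26.1% of all genes, and 3 fell without siKLF5 B or siNC B while 2 rose without siNC B and 3 without siNC C. With WT 0 rose and 2 fell, CS (-0.34, adjusted p = 0.000995) and FH, fumarase (-0.37, adjusted p = 0.0334), and with E419Q only CS passed (-0.45, adjusted p = 6.09e-05), shares of 9.09% and 4.55% against 22.9% and 21.2% of all genes. With WT, 1 fell without empty vector B or WT A and with DESeq2, and 1 rose without empty vector A, as it did with E419Q. In E419Q against WT 0 of the 22 passed with edgeR, and 2 had an unadjusted p under 0.05. Of the 7 genes of the pentose phosphate branch, 0 passed with siKLF5 with limma, where 1 had an unadjusted p under 0.05, although 1 rose without siNC A and 2 fell after quantile normalisation. With WT 3 rose and 1 fell (57.1% of the branch, against 22.9% of all genes), with TKT (0.27, adjusted p = 0.000803) and TALDO1 (0.32, adjusted p = 0.000991) among the rises, and with E419Q TALDO1 (0.42, adjusted p = 6.26e-05) and TKT (0.19, adjusted p = 0.0142) rose (28.6%, against 21.2%), of which 1 passed without E419Q A or E419Q B and with DESeq2. Of 8 genes of the glycogen and hexose branches, 1 rose and 1 fell with siKLF5, 0 and 1 with WT, 0 and 2 with E419Q, and 0 and 1 in E419Q against WT, which were 25.0%, 12.5%, 25.0% and 12.5% of the list beside 26.1%, 22.9%, 21.2% and 8.0% of all genes. With siKLF5, 0 rose without siKLF5 A, siKLF5 C or siNC A and after quantile normalisation. With WT, 0 passed without empty vector A and with DESeq2. With E419Q, 0 passed without E419Q B, and 1 fell without empty vector A or B. In E419Q against WT, 0 passed without E419Q B and with DESeq2. PYGL, the liver glycogen phosphorylase, fell with siKLF5 (-0.53, adjusted p = 6.30e-05), with E419Q (-0.43, adjusted p = 0.00167) and in E419Q against WT (-0.43, adjusted p = 0.00381). Other isoenzymes of the chain were mostly not tested for low counts, and 0 of the 2 tested in BICR31 and 3 tested in HCC95 passed in any comparison, where 1 had an unadjusted p under 0.05, in E419Q against WT.

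Of 7 genes of the HIF machinery, 0 rose and 2 fell with siKLF5, 1 and 1 with WT, 0 and 1 with E419Q, and 0 and 1 in E419Q against WT, which were 28.6%, 28.6%, 14.3% and 14.3% of the list beside 26.1%, 22.9%, 21.2% and 8.0% of all genes. With siKLF5, 1 fell without siKLF5 B, siKLF5 C, siNC B or siNC C. With WT, 0 rose without WT A and with DESeq2. With E419Q, 1 rose without E419Q A, empty vector A or empty vector B, and 0 passed with DESeq2. EPAS1, which encodes HIF-2alpha, fell in all 3 comparisons with a control: with siKLF5 (-0.81, adjusted p = 1.01e-06), with WT (-0.86, adjusted p = 1.35e-05) and with E419Q (-0.64, adjusted p = 0.000382). CITED2, an inhibitor of HIF that competes for its coactivators, fell with siKLF5 (-0.50, adjusted p = 0.0321), rose with WT (0.84, adjusted p = 0.00635) and was lower in E419Q than in WT (-1.60, adjusted p = 0.000114). Of 30 other genes known to be induced by low oxygen, 11 rose and 3 fell with siKLF5 (46.7%, against 26.1% of all genes), led by SLC2A12, a glucose transporter (1.85, adjusted p = 1.64e-09), WSB1 (1.06, adjusted p = 2.93e-06) and ERO1L, an oxidase of the endoplasmic reticulum (0.43, adjusted p = 0.000108). With WT 11 rose and 3 fell of 28 (50%, against 22.9% of all genes), with ZNF395 (0.92, adjusted p = 1.89e-06) and DDIT4, an inhibitor of mTOR signalling (0.45, adjusted p = 1.10e-05), among the rises. The largest called rise with WT was CA12, a carbonic anhydrase related to CA9 (1.60, adjusted p = 2.36e-05), which is named here after its value was seen. The lowest log2 fold change of the list with WT, -2.36, was a called fall and lay farther from 0 than this rise. The rises numbered 7 without WT B and 6 with DESeq2, where 1 fell. With E419Q 7 rose and 3 fell (35.7%, against 21.2% of all genes), or 4 and 3 with DESeq2, led by CA12 (3.11, adjusted p = 5.81e-11), STC2 (-1.16, adjusted p = 1.65e-08) and ZNF395 (0.98, adjusted p = 7.88e-07). In E419Q against WT 3 rose and 5 fell (28.6%, against 8.0% of all genes), or 3 and 3 without E419Q B, with CA12 (1.51, adjusted p = 3.60e-07) among the rises and STC2 (-0.80, adjusted p = 1.51e-05) among the falls. The medians of these genes were 0.25, 0.28, 0.09 and -0.10 in the order siKLF5, WT, E419Q, and E419Q against WT.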

How the data were processed

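The RNA-seq libraries were grouped by their labelled treatment. Reads were aligned with STAR and counted with RSEM on hg19, and edgeR and limma were also used, per the submitters' processing notes, with no versions or roles given there. For HCC95 the authors deposited RSEM expected counts, TPM and FPKM per gene, per the file headers. TPM served to set levels of genes beside each other and the deposited FPKM were not used. For BICR31 the authors deposited 1 normalised signal value per gene and library, without a header, and the sources used here do not say how it was made. In each BICR31 library the upper quartile of the values above 0 was 983 to 992 units. About 82% of these values were whole multiples of a step within 0.02, and the step gave the estimated counts. The other values were not whole multiples and all were deposited as normalised, so a count model was not used.

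BICR31 values were tested with limma 3.58.1 (empirical Bayes with trend) on log2(value + 1) over genes averaging 10 units or more, which understates the changes of low genes. Expected counts were rounded and tested with edgeR 4.0.16 (quasi-likelihood, TMM, filterByExpr, all 6 libraries in 1 fit). P-values are two-sided and were adjusted by Benjamini-Hochberg over all tested genes. The fits were also run on simulated data in which every gene had the same spread beyond counting error. That setting is simpler than these data, so the run does not vouch for the calls given here. The alternatives were another pseudocount, quantile normalisation, no filter, DESeq2 1.42.0, only the 4 libraries of a comparison, summed pseudogene rows, a replicate block and leaving out each library. Fits used R 4.3.3, and tables Python 3.11.15 with pandas 2.3.3.

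The genes and lists were chosen with earlier results of these data known. Values in every library are given for each gene called in at least 1 comparison and for SLC2A1, HK2, GAPDH, LDHA, PDK1, HIF1A, VEGFA and CA9, and of each other list up to 3 called genes with the smallest adjusted p per comparison are named. A few genes of these lists are not reported here by name. Libraries of a group differed more than counting error allows (chi-square per degree of freedom 1.23 to 1.83, against 5.40 to 9.13 between groups). Precision is limited by 2 or 3 libraries a group.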

Additional observations from a re-analysis of the deposited data

How the results depend on the processing

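Of the members' fold changes under all alternatives, 388 of 407 with siKLF5, 314 of 350 with WT, 317 of 350 with E419Q and 326 of 350 in E419Q against WT kept their direction where called and their side of the threshold. The exception in direction was ENO1 with siKLF5, at 0.12 after quantile normalisation, which also put the median of the hypoxia targets at 0.21. With DESeq2 the genes called over the whole table were 413 higher and 538 lower with WT, 452 and 511 with E419Q, and 211 and 171 in E419Q against WT, and the members called were 6 higher with WT, 4 higher and 9 lower with E419Q, and 5 lower in E419Q against WT. The cause was not tested. Leaving out each library in turn gave, with siKLF5, a median of the hypoxia targets of 0.22 to 0.37. With WT it gave 7 to 10 members higher, 7 to 9 lower, 785 to 1113 genes higher, 934 to 1309 genes lower and an enzyme median of -0.106 to -0.0504. With E419Q it gave 5 to 7 members higher, 9 to 15 lower, 822 to 1086 genes higher, 804 to 1212 lower and an enzyme median of -0.24 to -0.17. In E419Q against WT it gave 4 to 8 members lower, 341 to 380 genes higher and 249 to 286 lower, and an arm left with 1 library was assumed to vary like the other groups. Whether library letters pair the samples is not given in the labels. The correlation of deviations between same-letter libraries was -0.0274 to 0.0260, which shows no pairing but cannot exclude it with so few libraries a group. With a replicate block, GPI (adjusted p = 0.0521) and LDHA (0.0532) with siKLF5, PDK1 with WT (0.0515) and GPI in E419Q against WT (0.05001) no longer passed, and no other member's call changed. Summing pseudogene rows changed no member's call. Depth limits SLC2A3, ALDOC, PFKFB4, CA9 and ANKRD37 in BICR31 and CA9, ANKRD37 and ANGPTL4 in HCC95, where few counts stand behind each value, and counting error is not the only error.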
